A study of Homo sapiens with 16 samples.

Results

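The 10 cytokine genes IL6, LIF, IL11, IL1A, IL1B, IL24, IL33, CSF1, CSF2 and CSF3 were followed through H3K27ac peak lists of triple-negative breast cancer (TNBC) cells. They were chosen by name as inflammatory cytokines, with earlier results of these data known. They make up 10 of the 20007 protein-coding genes of the annotation. H3K27ac is acetylation of lysine 27 of histone H3, a mark of active promoters and enhancers, so the lists describe chromatin at these genes and not their mRNA or protein. For each gene the peaks, the covered length and the highest fold enrichment were recorded within 2 kb of the start site and over the gene body with 50 kb to either side, called the locus below. MDA-MB-231 and Hs578T, both established human TNBC lines, were each used as CRISPR control cells and as cells with a CRISPR knockout (KO) of Fn14, the TWEAK receptor encoded by TNFRSF12A. The KO cells carried the TLCV2 vector with guides against Fn14, and were checked by western blotting and Sanger sequencing. The study calls its genotyped CRISPR cells clones, and how many were used, or which one each list came from, is not given in the sources used here. All cells were starved for 8 h, and TWEAK (10 ng/ml, renewed after 24 h) was then given over 48 h or withheld. This gave 8 groups of 2 lists each. The question was how the acetylation of these loci moved with TWEAK, and whether the movement was seen without the receptor.

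The genes belong to families that differ in receptor. IL6, LIF and IL11 encode cytokines of the IL-6 family, which signal through the shared receptor chain gp130, encoded by IL6ST. IL1A, IL1B and IL33 encode members of the IL-1 family, the first pair acting through IL1R1 and IL1RAP and IL-33 through IL1RL1. IL24 encodes a cytokine of the IL-10 family that uses receptors containing IL20RB. CSF1, CSF2 and CSF3 encode the colony-stimulating factors M-CSF, GM-CSF and G-CSF, which act on macrophages and granulocytes and their precursors. TWEAK is a ligand of the TNF superfamily, and NF-kB and AP-1, the factors best known for inducing such cytokines, are activated downstream of receptors of this kind.

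Between 39544 and 47197 peaks were listed per sample, over 64.2 to 88.9 Mb of genome. Sequencing depth is unknown, since the lists hold no reads, and precision is judged from the pairs of lists. The start windows of the mesenchymal markers VIM, CD44, AXL and CAV1 held a peak in all 16 lists. Of the luminal, leukocyte and endothelial markers examined (4, 4 and 3 genes), at most 1 of each kind held one in any list. FOXA1 did so in 2 lists and CD14 and PECAM1 in 6 each, and ESR1, PGR, GATA3, PTPRC, CD3E, ITGAM, CDH5 and KDR in none. The PECAM1 peak reached a height of 18.6, within the range of VIM (12.8 to 20.9). Those of FOXA1 and CD14 reached 3.60 and 3.34. TNFRSF12A kept a peak at its start in all 16 lists, with a height between 16.2 and 38.2, and an acetylation peak there does not show whether Fn14 protein was made. Height here is the fold enrichment over input that a list gives for a peak, and the highest one in a window is used. The median over all genes of KO minus control in locus height was -0.31 untreated and -0.49 with TWEAK in MDA-MB-231 on the log2 scale. In Hs578T it was 0.04 and -0.07. Genotypes are set against each other below by covered length and by height, and most differences called at members are of height. Covered length shifted too, downward in MDA-MB-231 and upward in Hs578T. Its median over all genes was -0.28 kb untreated and -0.37 kb with TWEAK in MDA-MB-231, and 0.14 and 0.48 kb in Hs578T.

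The bases before 5 of the start sites are shown, those where a peak was called or gained with TWEAK and a promoter was at hand, with the places of NF-kB and AP-1 motifs. RefSeq (GRCh38.p14) gave a promoter for 7 of the 10 members, and LIF, CSF1 and CSF3 had no entry. Each run below ends at the last base before the start site, except that of IL6, which ends before an exon of another IL6 transcript. Capitals mark TGANTCA, an AP-1 motif that reads the same on both strands, or GGANNTTCC, an NF-kB-like motif, searched on both strands. IL6 lies at chr7:22726950-22727146 on the plus strand, CSF2 at chr5:132073539-132073788 (plus), IL24 at chr1:206897193-206897442 (plus), IL11 at chr19:55370464-55370713 (minus) and IL1A at chr2:112784494-112784743 (minus).
IL6: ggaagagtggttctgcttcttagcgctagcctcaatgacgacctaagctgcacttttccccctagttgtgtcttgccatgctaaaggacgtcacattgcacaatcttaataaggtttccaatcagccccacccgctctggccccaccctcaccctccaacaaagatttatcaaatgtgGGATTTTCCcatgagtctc
CSF2: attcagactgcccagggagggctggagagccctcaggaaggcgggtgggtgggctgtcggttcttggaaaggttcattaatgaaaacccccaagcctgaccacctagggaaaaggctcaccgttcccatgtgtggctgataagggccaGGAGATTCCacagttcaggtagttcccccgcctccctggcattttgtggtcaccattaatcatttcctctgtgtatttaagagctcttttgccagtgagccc
IL24: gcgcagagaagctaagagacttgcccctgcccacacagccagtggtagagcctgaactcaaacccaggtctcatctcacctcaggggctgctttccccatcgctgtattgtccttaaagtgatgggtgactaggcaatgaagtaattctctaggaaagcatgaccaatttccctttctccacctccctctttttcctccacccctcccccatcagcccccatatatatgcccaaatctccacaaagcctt
IL11: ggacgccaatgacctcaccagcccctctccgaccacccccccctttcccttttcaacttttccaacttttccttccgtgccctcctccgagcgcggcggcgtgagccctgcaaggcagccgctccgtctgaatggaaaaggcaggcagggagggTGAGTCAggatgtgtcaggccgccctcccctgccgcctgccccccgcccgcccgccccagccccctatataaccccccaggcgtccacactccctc
IL1A: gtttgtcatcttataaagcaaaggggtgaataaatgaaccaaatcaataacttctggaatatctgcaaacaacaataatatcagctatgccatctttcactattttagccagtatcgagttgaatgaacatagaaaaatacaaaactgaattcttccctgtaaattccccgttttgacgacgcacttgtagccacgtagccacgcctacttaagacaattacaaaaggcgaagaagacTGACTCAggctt
The NF-kB-like motif was found in IL6, from 72 to 64 bases before the start site, and in CSF2, from 102 to 94 bases before it, and 3.84% of all promoters of 250 bases held it. The AP-1 motif was found in IL11 (96 to 90 bases before the start) and in IL1A (12 to 6 bases), and 6.57% of all promoters held it. No match was found in the IL24 run.

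Coverage differed widely between the members. The LIF locus had on average 51.6% of its window under peaks, more than any other protein-coding gene. That window also holds the start sites of OSM and CASTOR1. Its highest peak lay in a 24.0 kb region centred 42.8 kb downstream of the LIF start in all 16 lists. CSF1 followed with 21.9%, CSF2 with 15.5%, IL11 with 15.1%, and IL24, CSF3, IL1A, IL1B and IL6 with 11.1% to 12.6%, against a median of 3.86% over all genes. Over the 16 lists the lowest CSF1 value (14.8%) lay above the highest of IL1B (14.6%) and IL6 (14.1%). The ranges of all other pairs of these 8 loci overlapped. Such ranges mix lines, genotypes and treatments, and the order of the loci was not tested. IL33, which encodes an alarmin of barrier cells, had no peak in its 142 kb window in any list, so 9 of the 10 members entered the tests. IL6, LIF, IL24, CSF1, CSF2 and CSF3 had a peak at the start site in all 16 lists, IL11 in 15, IL1B in 10 and IL1A in 9.

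With TWEAK, control cells had more H3K27ac over CSF2, IL24 and IL1B and less over IL11. The CSF2 locus was covered over 11.1 and 12.4 kb in the untreated and 19.6 and 18.4 kb in the TWEAK lists of control MDA-MB-231 cells, and over 13.8 and 18.7 kb untreated and 19.4 and 21.9 kb with TWEAK in Hs578T control cells. TWEAK lists lay above untreated lists in both lines, and the mean difference was 5.82 ± 1.08 kb (± SE, adjusted p = 0.0021). Adjusted p-values are from limma on 8 group means of 2 lists, over all 17908 genes with a peak in the window in at least 2 lists, and a gene is called below 0.05. At IL24 the untreated control lists held 11.9 and 16.1 kb in MDA-MB-231 and 13.3 and 10.9 kb in Hs578T. With TWEAK they held 17.2 and 21.5 kb in MDA-MB-231 and 17.7 and 18.2 kb in Hs578T, again without overlap, a rise of 5.61 ± 1.10 kb (adjusted p = 0.0031). IL1B went from 8.53 and 9.01 kb to 12.5 and 13.1 kb in MDA-MB-231 and from 13 and 11.4 kb to 14.3 and 15.7 kb in Hs578T control cells. This was the least secure of the calls (3.42 ± 1.11 kb, adjusted p = 0.045), and it was lost in 16 of 24 alternatives, among them all 8 that left out a control list and the 100 kb window, where the adjusted p was 0.46.

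IL11 moved the other way. Its locus was covered over 17.8 and 23 kb in untreated and 12.4 and 13.2 kb with TWEAK in the control lists of MDA-MB-231, and over 18.1 and 15.2 kb untreated and 9.27 and 9.52 kb with TWEAK in Hs578T. The groups did not overlap in either line, and the difference was -7.43 ± 1.85 kb (adjusted p = 0.012). Without replicate 2 of the untreated MDA-MB-231 control lists the adjusted p was 0.055. The start sites of 9 other genes lie within the IL11 locus, so the covered length is not that of IL11 alone. CSF3 had 13.7 and 16.1 kb without and 12 and 13 kb with TWEAK in MDA-MB-231, and 12.7 and 12.5 kb without and 10.9 and 11.1 kb with it in Hs578T, a difference of -2.05 ± 0.69 kb that did not pass (adjusted p = 0.054). IL6 (1.44 ± 0.64 kb), CSF1 (2.24 ± 2.11 kb), LIF (-0.89 ± 2.36 kb) and IL1A (-0.03 ± 1.03 kb) did not pass either, with adjusted p between 0.14 and 0.99. Thus 3 of 9 tested members gained and 1 lost coverage, where over all genes 7.54% were called higher and 11.3% lower. Within each line alone 1 member was called higher and 0 lower, so the fall at IL11 was called in neither. Of 17908 genes, 692 were called higher and 490 lower in MDA-MB-231, and 589 and 731 in Hs578T. The median difference was 1.44 kb over the 9 members and -0.20 kb over all genes. Bulk lists do not tell apart a change in the share of cells with acetylated chromatin from a change in acetylation per cell.

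**Figure D1:**
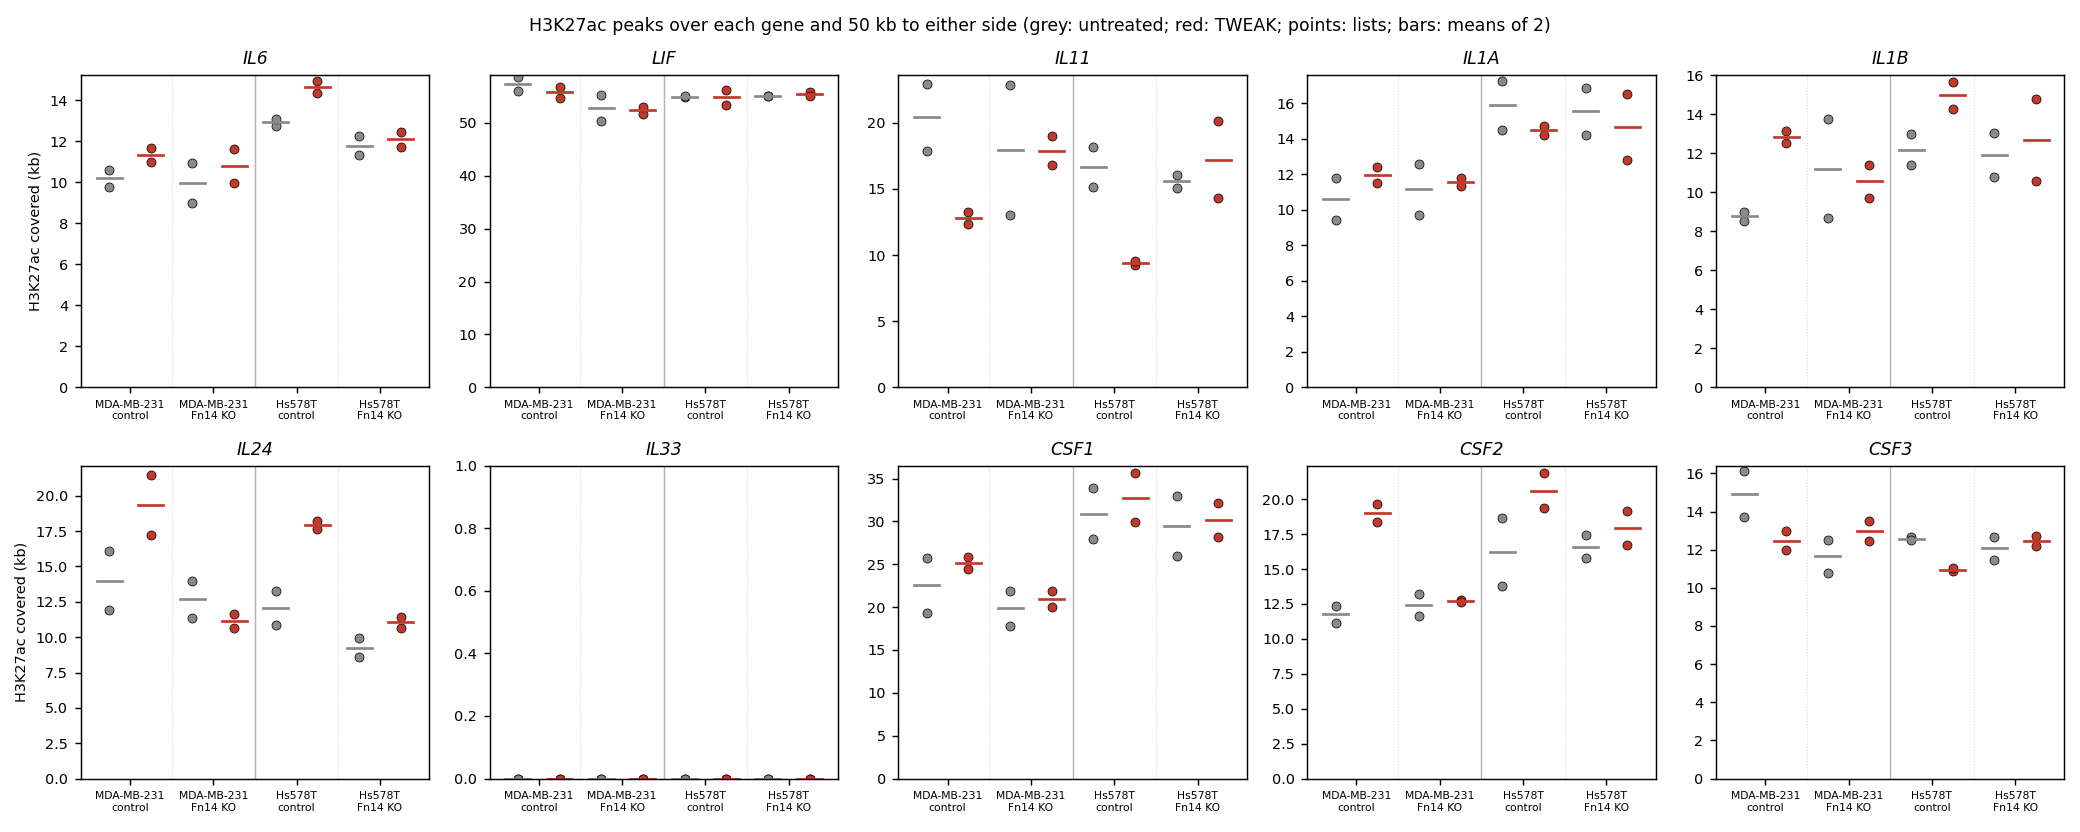
Covered length at the 10 loci, in kb of H3K27ac peak within the gene and 50 kb to either side (y axis), for each line and genotype (x axis), untreated in grey and with TWEAK in red. Points are single lists and bars the means of 2. CSF2 and IL24 rose and IL11 fell with TWEAK in control cells of both lines, LIF stayed between 50.4 and 58.7 kb, and IL33 had no peak.

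In Fn14 KO cells no member was called for TWEAK, and none of the 17908 genes was (0%). No member and 321 of these genes had an unadjusted p under 0.05 in limma, a smaller share than 0.05. The differences at CSF2, IL24, IL1B and IL11 were 0.82 ± 1.08, 0.13 ± 1.10, 0.06 ± 1.11 and 0.79 ± 1.85 kb. The exact permutation test over the 8 KO lists could not go below a p of 0.0556. When the effect of TWEAK in control cells was tested against that in KO cells, the difference was 5.48 ± 1.56 kb at IL24 (adjusted p = 0.057), 5.0 ± 1.52 kb at CSF2 (0.074), -8.22 ± 2.62 kb at IL11 (0.086), -2.92 ± 0.98 kb at CSF3 (0.10) and 3.36 ± 1.57 kb at IL1B (0.26). No member passed this test on covered length, in which 5.29% of all genes were called. Without TWEAK, no member was called between KO and control cells for covered length of the locus (adjusted p from 0.32 to 0.99; 0.553% of genes called). Other measures did differ. Covered length at the start was shorter in untreated KO than control lists of MDA-MB-231 at IL11 (-1.59 ± 0.26 kb, adjusted p = 0.029) and CSF3 (-0.79 ± 0.12 kb, adjusted p = 0.021), where 0.431% of genes were called lower. Locus height was lower in KO at LIF and IL6 over both lines (20.2% of genes) and at LIF, IL24 and CSF3 in MDA-MB-231 alone (49.2%), and start site height at LIF in MDA-MB-231 (38.6%). These height calls were all lost with each list centred on its median height (adjusted p from 0.055 to 0.70). That alternative was added after seeing the data. With it IL1A and IL1B were called higher in KO for locus height in MDA-MB-231 (0.49 ± 0.10 each, adjusted p = 0.0057 and 0.0065). CSF2 was called higher for start height over both lines (0.34 ± 0.07, 0.039). The share of genes called with centred heights is not given here. With TWEAK, KO lists had less coverage than control lists at IL24 (-7.54 ± 1.10 kb, adjusted p = 0.00031) and CSF2 (-4.48 ± 1.08 kb, 0.0095) and more at IL11 (6.45 ± 1.85 kb, 0.025). That is 1 member higher and 2 lower, against 9.88% and 9.84% of genes. These comparisons share the control TWEAK lists with the one above. Within MDA-MB-231, 0 members were called higher and 2 lower, against 282 and 1246 of 17908 genes. Within Hs578T it was 0 and 1, against 2298 and 881. The IL11 call was lost without any 1 of 6 TWEAK lists (adjusted p from 0.062 to 0.12), all but replicate 1 of the MDA-MB-231 and replicate 2 of the Hs578T KO lists. The untreated KO pair of MDA-MB-231 was uneven at this locus, with 22.9 and 13.1 kb.

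The height of the strongest peak moved at more members than the covered length. In control cells with TWEAK the highest fold enrichment in the locus was called higher at 8 of 9 members and lower at none, where 25.4% and 7.45% of all genes were called. Leaving out single lists gave 5 to 8 members, with CSF1, CSF3 and IL11 the ones lost, and 5 were left without replicate 1 of either untreated control group, MDA-MB-231 TWEAK replicate 1 or Hs578T TWEAK replicate 2. The median over the members was 0.36 and over all genes 0.09 on the log2(fold enrichment + 1) scale used for all height tests. Heights as a whole shifted with TWEAK, and when each list was centred on its median height, an alternative added after seeing the data, the median of all genes went to -0.0045. IL11 (adjusted p = 0.22), CSF1 (0.065) and CSF3 (0.27) were then no longer called. At IL11 and CSF3 the highest peak lay at the start sites of UBE2S and PSMD3 in all 16 lists and not at the cytokine. At IL1A and IL1B it was the region they share 27.8 kb upstream of IL1A in 12 and 11 lists, the shared region 19.8 kb upstream of IL1A in 4 and 3, and for IL1B the region 43.1 kb upstream in 2, so their locus heights do not come from 1 region throughout. The same holds for CSF2, with the region 21.0 kb downstream in 12 lists and 29.4 kb downstream in 4. At CSF1 it lay 33.5 kb upstream in 11 lists and 67 kb downstream in 5. At IL6 it lay 9.1 kb upstream in 15 lists and at the start site in 1. The effect of TWEAK was larger in control than in KO cells at IL1B (1.42 ± 0.11, adjusted p = 1.4e-06), IL1A (1.39 ± 0.11, 1.7e-06), CSF2 (0.54 ± 0.11, 0.0026), IL24 (0.52 ± 0.12, 0.0049) and IL6 (0.50 ± 0.11, 0.0039). These 5 calls, against 18.3% of genes called higher and 3.11% lower, were kept with centred heights, at 1.28 ± 0.10, 1.25 ± 0.10, 0.39 ± 0.07, 0.38 ± 0.12 and 0.36 ± 0.10. By the exact two-sided permutation test with 1296 arrangements the adjusted p of these 5 was 0.14, and none passed. That test exchanges treatment labels in both genotypes, so it asks whether TWEAK had any effect in either. It therefore cannot decide whether the effect differed between them.

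**Figure D2:**
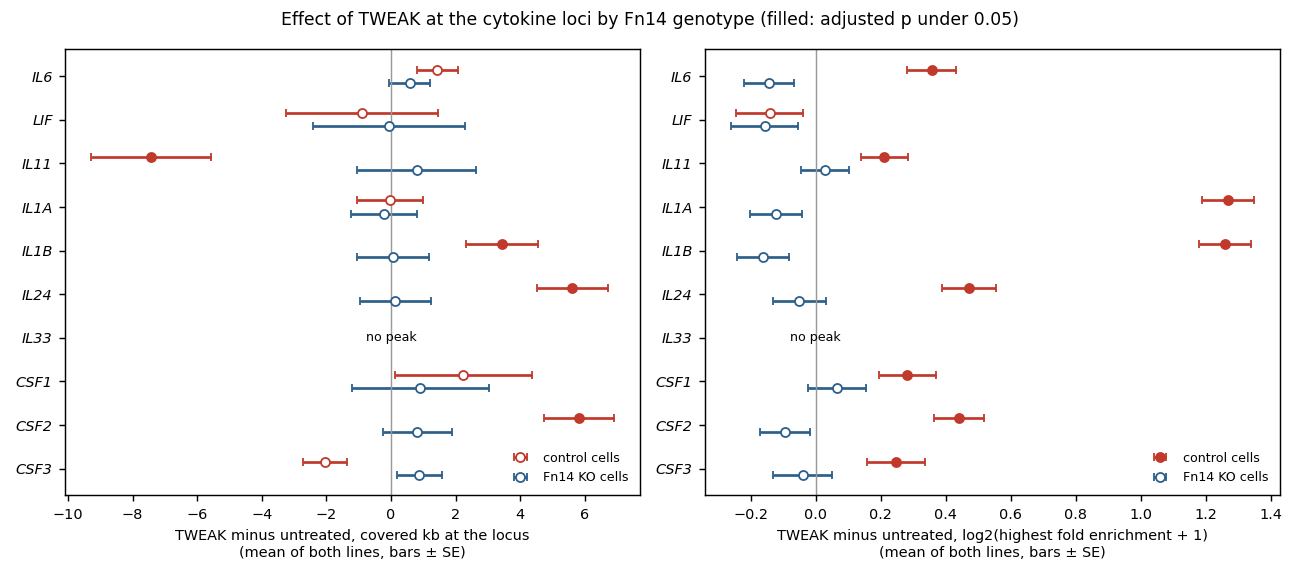
Effect of TWEAK at each locus as TWEAK minus untreated, averaged over both lines, in control cells (red) and Fn14 KO cells (blue), for covered kb (left) and for log2(highest fold enrichment + 1) (right). Points are limma estimates, bars are SE, and filled points passed an adjusted p of 0.05. No KO point is filled, and IL1A and IL1B stand apart on the right at 1.27 and 1.26.

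The loci held 59 regions, built by merging overlapping peaks of the 16 lists and keeping those present in at least 2. Of these, 26 lay between genes, 6 in introns and 27 overlapped an exon. In 40 of them every list had a peak. Of those 40, 21 were higher and 3 lower in control cells with TWEAK, where 23.0% and 13.7% of the 28337 such regions of the genome were. The effect exceeded that in KO cells in 17 and was below it in 2 (16.9% and 6.35%), and none of the 40 was called in KO cells. How many of the 28337 regions were called in KO cells is not given here. For locus height in KO cells, 0 of 17908 genes were called higher and 2 lower. The median difference in effect between genotypes over the 28337 regions was 0.077, and region heights are given without centring. Regions of a locus are neighbours and not independent. By presence alone, 4 of the 59 were gained and 2 lost with TWEAK in control MDA-MB-231 cells, and 2 gained and 2 lost in Hs578T control cells. These counts were close to the genome, where 5.58% and 4.49% of 55219 regions were gained and lost in MDA-MB-231 and 5.09% and 4.65% in Hs578T. In KO cells none of the 59 was gained or lost, where the genome gave 0.321% and 1.35% in MDA-MB-231 and 1.05% and 0.829% in Hs578T. Where only 1 list stood for an arm, gains in KO cells numbered 4 without replicate 1 of the untreated MDA-MB-231 KO lists, 2 without replicate 1 of the TWEAK lists there, and 1 without replicate 1 of the untreated Hs578T KO lists.

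The central 300 bases of 4 regions are given, all on the plus strand of hg38: the 2 regions whose height rose most among those with a peak in every list, and the 2 gained in both lines. The centre is halfway between the ends of a region and is not a summit, which the lists do not hold. They are the region 27.8 kb upstream of IL1A (chr2:112812182-112812481), the one 17.9 kb upstream of CSF1 (chr1:109892803-109893102), the one 11.9 kb upstream of IL24 (chr1:206885353-206885652) and the one 25 kb downstream of the CSF2 start (chr5:132098596-132098895).
IL1A upstream: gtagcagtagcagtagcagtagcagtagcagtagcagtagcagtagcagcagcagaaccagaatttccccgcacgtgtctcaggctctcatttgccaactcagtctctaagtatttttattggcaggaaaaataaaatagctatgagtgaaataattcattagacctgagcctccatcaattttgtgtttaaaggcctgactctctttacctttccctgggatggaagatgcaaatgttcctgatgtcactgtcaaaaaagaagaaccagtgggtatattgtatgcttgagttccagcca
CSF1 upstream: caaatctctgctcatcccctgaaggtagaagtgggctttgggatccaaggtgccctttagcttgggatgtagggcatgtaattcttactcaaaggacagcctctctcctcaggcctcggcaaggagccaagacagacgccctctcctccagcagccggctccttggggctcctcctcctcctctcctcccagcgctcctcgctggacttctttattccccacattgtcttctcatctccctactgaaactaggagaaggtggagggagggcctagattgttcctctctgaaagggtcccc
IL24 upstream: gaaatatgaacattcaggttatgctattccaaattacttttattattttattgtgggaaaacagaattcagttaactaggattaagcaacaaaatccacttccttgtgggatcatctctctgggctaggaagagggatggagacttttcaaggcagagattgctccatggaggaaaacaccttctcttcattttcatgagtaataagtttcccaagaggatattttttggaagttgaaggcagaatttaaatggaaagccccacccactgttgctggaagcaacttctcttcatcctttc
CSF2 downstream: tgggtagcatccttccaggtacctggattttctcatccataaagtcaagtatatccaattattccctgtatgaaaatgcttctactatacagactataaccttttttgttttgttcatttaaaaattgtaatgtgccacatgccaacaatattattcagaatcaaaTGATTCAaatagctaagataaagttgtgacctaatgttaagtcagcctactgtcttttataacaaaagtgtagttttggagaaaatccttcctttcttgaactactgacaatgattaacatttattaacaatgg
The AP-1 motif occurred in the CSF2 run, from base 167 to 173, and neither motif in the other runs. Over the same central window, 26.0% of all consensus regions held the AP-1 motif and 4.27% the NF-kB-like motif, against 10 and 2 of the 59 regions at these loci.

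Among regions with a peak in every list, the largest change in height lay between IL1A and IL1B. Both genes, which encode the pro-inflammatory cytokines IL-1 alpha and IL-1 beta, are transcribed from the minus strand of chromosome 2 with start sites 52.3 kb apart, so their windows share 54.7 kb and the elements between them count for both. A region at chr2:112810672-112813993 (hg38), 27.8 kb upstream of IL1A and in no annotated gene, had heights of 12.2 and 13.2 in untreated and 34.5 and 35.9 with TWEAK in the control lists of MDA-MB-231. In Hs578T it went from 14.7 and 14.6 to 31.2 and 35.5. All 8 KO lists held 10.5 to 15.8, whether or not TWEAK had been given. The 4 control TWEAK lists were thus above every other list, and the effect was 1.27 ± 0.07 on the log2 scale (adjusted p = 6.7e-07), larger than in KO cells by 1.34 ± 0.10 (adjusted p = 1.1e-05). A smaller region at chr2:112792836-112795425, 9.6 kb upstream of IL1A, went from 5.35 and 6.84 to 13.3 and 14.4 in MDA-MB-231 and from 9.67 and 7.31 to 13 and 15.6 in Hs578T control cells (0.88 ± 0.10, adjusted p = 9.2e-05), with KO lists at 6.15 to 9.0. Upstream of IL1B, a region at chr2:112876646-112883014 rose by 0.45 ± 0.08 (adjusted p = 0.0019). A region between these, at 19.8 kb upstream of IL1A, did not pass (7.73 and 7.45 without and 6.82 and 7.36 with TWEAK in control MDA-MB-231 cells, and 14 and 10.9 without and 8.58 and 9.77 with it in Hs578T, where the TWEAK lists were below the untreated ones; adjusted p = 0.075 over both lines).

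Acetylation at the start sites of both IL-1 genes was weak. IL1A, whose promoter run above holds an AP-1 motif, had no start site peak in the untreated MDA-MB-231 control lists and heights of 3.69 and 2.97 with TWEAK. In Hs578T control cells all 4 lists had one (3.26 and 2.72 untreated and 4.65 and 4.10 with TWEAK), and 3 of the 8 KO lists had one. IL1B had a start site peak of 3.08 to 3.56 in the 4 MDA-MB-231 control lists and in only 1 of the 4 Hs578T control lists. Neither start site was called in any TWEAK contrast. In MDA-MB-231 control cells a region 3.0 kb upstream of IL1B (chr2:112839029-112840592) was gained, with heights of 3.37 and 4.86 in the TWEAK lists and no peak in any other list of the series. Another, 32.8 kb upstream of IL1B (chr2:112868634-112870577), was lost there and was present in all 14 other lists.

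IL24, which encodes a cytokine of the IL-10 family that lies beside IL20 on chromosome 1, changed both upstream and at its start site. Its strongest peak, at chr1:206887486-206893754 between IL20 and IL24, rose from 32.1 and 32.8 to 49.2 and 44.2 in MDA-MB-231 and from 18.3 and 19.5 to 24.8 and 26.9 in Hs578T control cells. The effect was 0.47 ± 0.08 (adjusted p = 0.0018), with 0.52 ± 0.12 for the difference from KO cells (adjusted p = 0.011). MDA-MB-231 KO lists (22.1 to 23.8) were below every control list of that line, where KO lists were lower in general, as given above. Further upstream, a weak region of 934 bp at chr1:206885037-206885970 was gained in both lines, with heights of 3.08 and 2.80 in MDA-MB-231 and 3.16 and 3.74 in Hs578T TWEAK lists and no peak in the 12 other lists. The IL24 start site went the other way. Its height was 10.7 and 11.6 without and 9.36 and 8.40 with TWEAK in control MDA-MB-231 cells and 9.64 and 9.70 without and 6.13 and 6.21 with it in Hs578T (-0.44 ± 0.11, adjusted p = 0.020). A fold enrichment is given for a whole broad peak, and in Hs578T the start site peak was also longer with TWEAK, covering 2.94 and 3.08 kb without and 3.88 and 4.0 kb with it. The difference from KO cells at the start site did not pass (adjusted p = 0.20), and with a 5 kb start window, which takes in the upstream peak, the sign of the effect turned. The start site call was lost without any 1 of the 4 Hs578T control lists or without replicate 2 of either MDA-MB-231 control group (adjusted p from 0.052 to 0.075).

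CSF2 encodes GM-CSF and lies next to IL3 on chromosome 5. Its start site, an element 12.7 kb downstream and a pair of strong elements 21.0 and 29.4 kb downstream were acetylated in all lists, all but the first in no annotated gene. The element at chr5:132085131-132087858 was the one that moved most, from 9.85 and 9.59 to 19.4 and 19.9 in MDA-MB-231 and from 6.75 and 7.02 to 13.8 and 13.7 in Hs578T control cells. KO lists held 6.63 to 10.4, and the effect of 0.92 ± 0.12 (adjusted p = 0.00020) exceeded that in KO cells by 0.87 ± 0.17 (adjusted p = 0.0042). The elements at chr5:132092648-132096950 and chr5:132101040-132105377 rose by 0.44 ± 0.06 (adjusted p = 0.00038) and 0.34 ± 0.08 (adjusted p = 0.0077). Between them a region at chr5:132097935-132099557 was gained in both lines, at 3.74 and 3.0 in MDA-MB-231 and 3.14 and 2.72 in Hs578T TWEAK lists, and was absent from the 12 other lists. The start site peak went from 14.7 and 17.1 to 17 and 19.3 in MDA-MB-231, where the lists overlapped, and from 15.4 and 13.7 to 19.7 and 20.5 in Hs578T (0.31 ± 0.09, adjusted p = 0.032). Hs578T KO lists were as high or higher at the start site, at 19.2 to 24.1.

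CSF1 encodes M-CSF, the growth factor of macrophages. Its covered length did not pass, and 8 regions of its locus with a peak in every list were called higher and none lower. At chr1:109891580-109894326, 17.9 kb upstream and between genes, heights were 4.19 and 4.90 in untreated and 10.6 and 9.10 with TWEAK in the control lists of MDA-MB-231, and 3.83 and 4.23 without and 10.3 and 10.3 with TWEAK in Hs578T. The KO lists held 3.30 to 5.99. This change of 1.07 ± 0.14 (adjusted p = 0.00021) differed from that in KO cells by 1.16 ± 0.19 (adjusted p = 0.0017). The start site peak rose from 6.29 and 7.39 to 12.9 and 11.5 in MDA-MB-231 and from 6.11 and 7.61 to 11.1 and 8.45 in Hs578T (0.60 ± 0.12, adjusted p = 0.0045). A 12.3 kb region over the 3' part of the gene and beyond (chr1:109922773-109935079) rose by 0.72 ± 0.12 (adjusted p = 0.0011), and one 33.5 kb upstream by 0.30 ± 0.07 (adjusted p = 0.0073), the latter without a called difference from KO cells (adjusted p = 0.13).

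**Figure D3:**
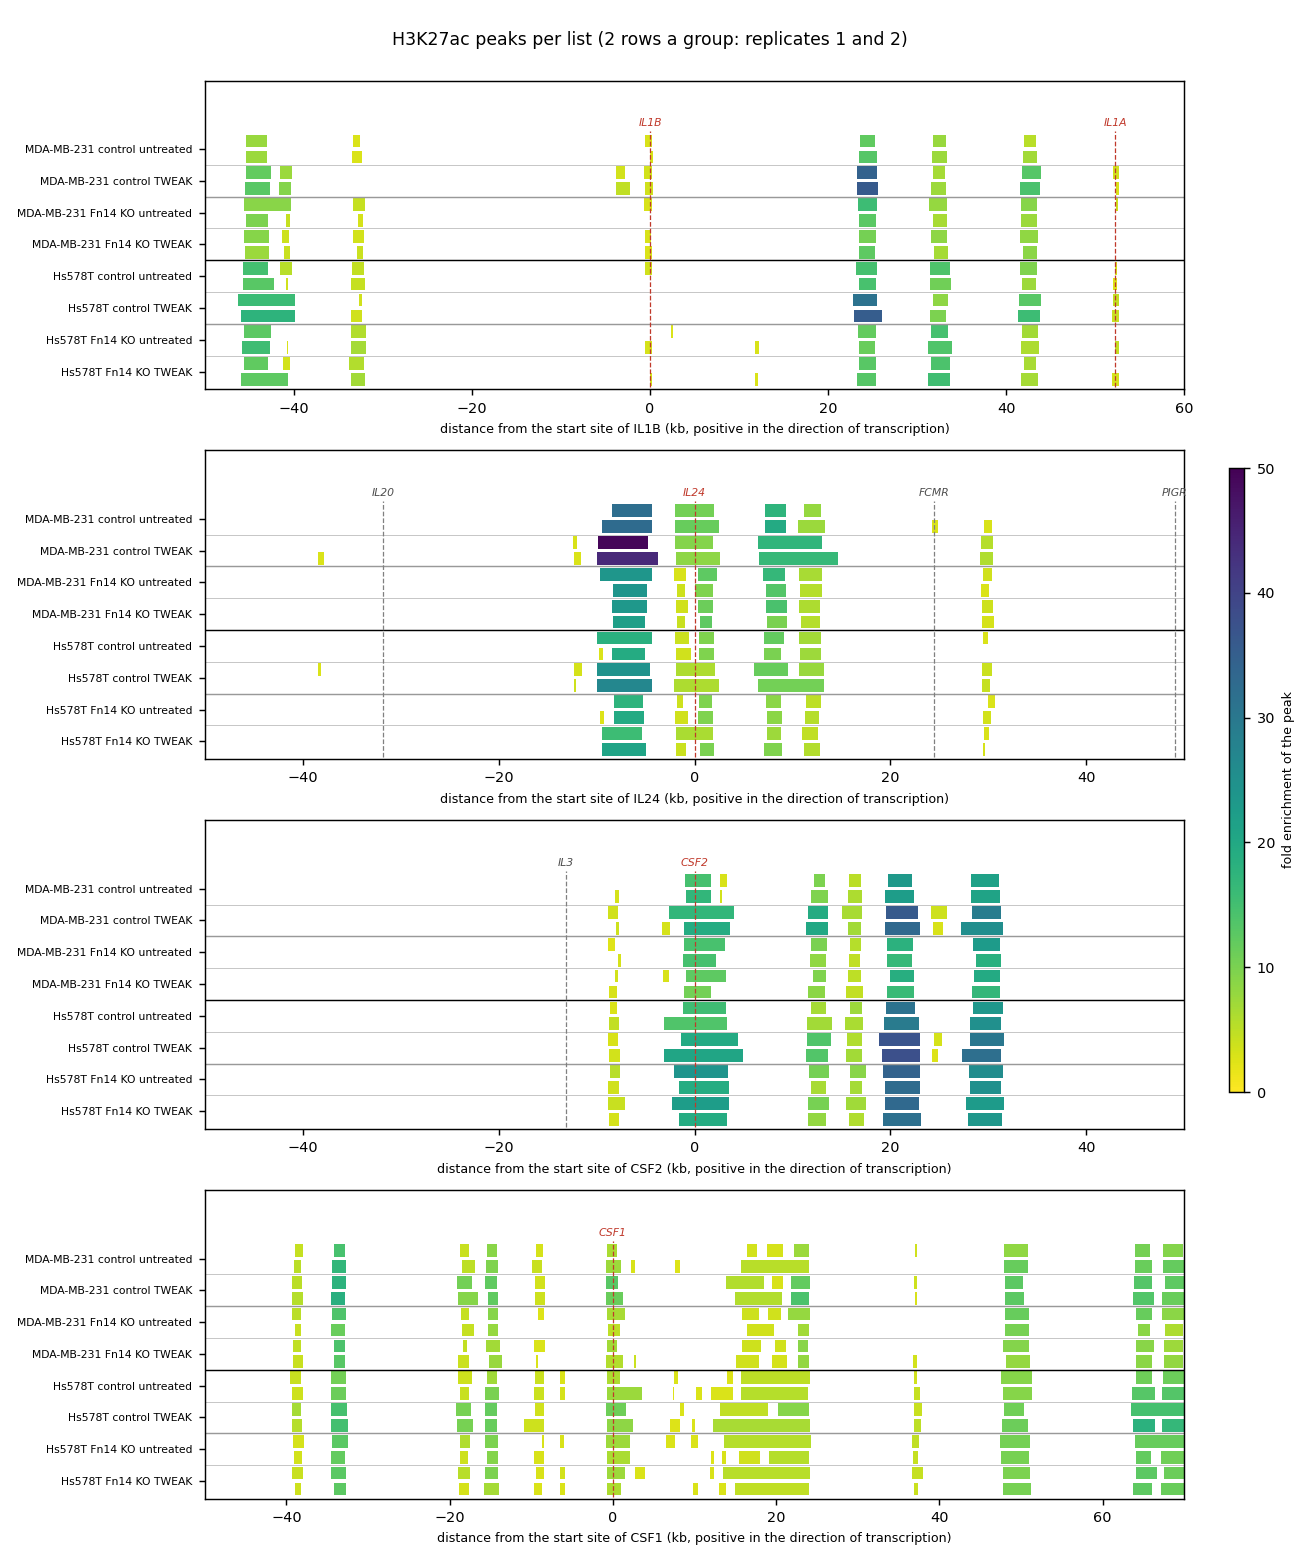
Peaks of the 16 lists around IL1B and IL1A, IL24, CSF2 and CSF1, by distance from the start site in kb (x axis). Rows are lists in pairs of replicates by group, colour is the fold enrichment of the peak, and dashed lines are start sites. The IL1A and IL1B element at 24.4 kb on the IL1B axis is dark in the 4 control TWEAK lists, and the short peaks at -11.9 kb from IL24 and 25 kb from CSF2 occur in those 4 lists alone.

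At CSF3, which encodes the granulocyte growth factor G-CSF, the change was at the start site. The region at chr17:40013737-40016504 had heights of 6.86 and 5.92 in untreated and 12.5 and 11.5 with TWEAK in the control lists of MDA-MB-231 and of 4.62 and 4.41 without and 8.57 and 8.78 with TWEAK in Hs578T, against 4.48 to 5.81 in all KO lists. Start site height rose by 0.81 ± 0.09 (adjusted p = 0.00010), and by 0.84 ± 0.13 more than in KO cells (adjusted p = 0.0026). With a 5 kb window, which reaches further into the neighbouring peak over MED24, neither passed (adjusted p = 0.33 and 0.67). Covered length at the start did not pass (-0.26 ± 0.09 kb, adjusted p = 0.17). A region at THRA, 47.7 kb downstream, was lost in Hs578T control cells, as was one 6.2 kb upstream of CSF1.

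IL6 encodes interleukin-6, the founding cytokine of its family, and its promoter run above holds an NF-kB-like motif, as that of CSF2 does. Its start site peak went from 13.9 and 14.8 to 18.4 and 18.6 in MDA-MB-231 and from 15.6 and 11.7 to 17 and 17.5 in Hs578T control cells (0.34 ± 0.08, adjusted p = 0.014). It was also longer by 0.33 ± 0.06 kb (adjusted p = 0.026), a call lost with start windows of 1 and 5 kb and without any 1 of 6 control lists (adjusted p from 0.058 to 0.096). These were all MDA-MB-231 control lists and replicate 1 of both Hs578T control groups. In KO cells the start site heights with TWEAK were 11 and 9.86 in MDA-MB-231 and 13.8 and 14.5 in Hs578T. The difference in effect was at the threshold (0.41 ± 0.11, adjusted p = 0.049). That call was lost in 18 of 25 alternatives, among them the exact permutation test, which does not decide on this difference. An upstream region at chr7:22716100-22720174, within an intron of STEAP1B, rose from 15.6 and 16.7 to 22.3 and 22.7 and from 28.9 and 24.2 to 34 and 29.7 in control cells of the 2 lines (0.36 ± 0.08, adjusted p = 0.0052; difference from KO 0.47 ± 0.11, 0.011). A region at chr7:22671471-22676655, also within STEAP1B and only in part inside the window, fell in both lines, from 10.7 and 13.1 to 5.99 and 5.36 and from 19.7 and 17.2 to 10 and 12.3. That difference of -0.81 ± 0.10 (adjusted p = 0.00011) stood beside one of -0.07 ± 0.10 in KO cells, and the contrast between genotypes passed (adjusted p = 0.0030).

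IL11 encodes an IL-6 family cytokine known for its part in fibrosis and bone metastasis, and its promoter run above holds an AP-1 motif. The MDA-MB-231 control cells started with the widest peak there, covering 3.55 and 3.47 kb of the 4 kb start window without TWEAK and 0.612 and 1.12 kb with it. Hs578T control cells went from 1.75 and 1.74 to 0.490 and 0 kb. Covered length at the start fell by 2.07 ± 0.19 kb in limma (adjusted p = 0.00026), and by more than in KO cells (-1.81 ± 0.26 kb, adjusted p = 0.012), where all 8 lists held 0.999 to 2.29 kb. The untreated MDA-MB-231 KO lists, at 2.29 and 1.55 kb, were already below the control lists, as given above. In this test IL6 and IL11 were the members called, 1 higher and 1 lower, where 1.09% and 1.82% of 12543 genes were. For the difference IL11 was the 1 member called, and 0.478% and 0.462% of genes were called higher and lower. The region over IL11 and TMEM190 (chr19:55368748-55377317) fell from 6.55 and 6.89 to 4.76 and 4.48 in MDA-MB-231 and from 4.78 and 3.93 to 2.63 and 3.10 in Hs578T control cells (-0.46 ± 0.10, adjusted p = 0.0045). A region 43.0 kb downstream, within TMEM150B, was lost in MDA-MB-231 control cells. LIF, which encodes leukemia inhibitory factor, was called in no TWEAK contrast. Its domain over the gene, chr22:30233836-30259545, spanned 25.7 kb and had heights of 27.9 and 22.1 without and 24.6 and 16.6 with TWEAK in MDA-MB-231 and 14.9 and 14.3 without and 11.8 and 12.6 with it in Hs578T control cells, groups that overlapped in MDA-MB-231.

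**Figure D4:**
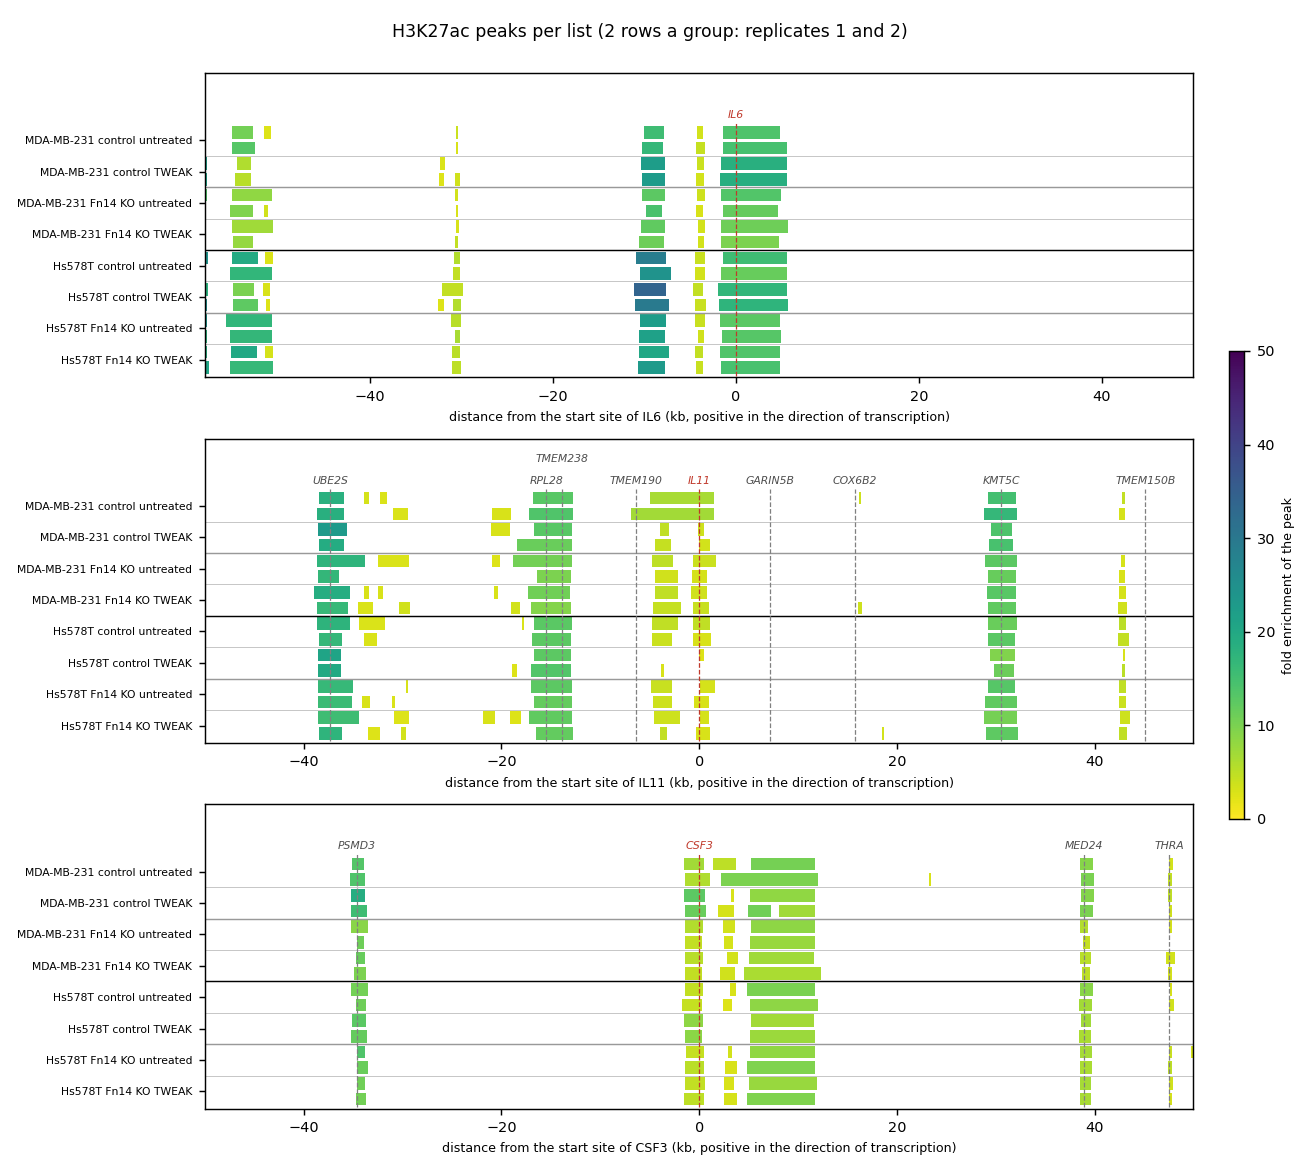
Peaks of the 16 lists around IL6, IL11 and CSF3, drawn as distance from the start site in kb (x axis), with pairs of rows for the replicates of a group, colour for fold enrichment and dashed lines for start sites. The long IL11 start peak is seen in the untreated MDA-MB-231 control lists, and the CSF3 start peak is darker in the 4 control TWEAK lists.

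Over the start sites as a set, height in control cells was called higher at IL6, CSF1, CSF2 and CSF3 and lower at IL11 and IL24, that is 4 and 2 of 9 members against 11.0% and 6.50% of genes. The IL11 call (-1.04 ± 0.30, adjusted p = 0.035) includes a list without any start site peak and was lost without any 1 of 6 control lists, all but the Hs578T TWEAK pair (adjusted p from 0.051 to 0.11). The CSF2 call was lost without any 1 of 5 control lists, which were replicates 1 and 2 of Hs578T with TWEAK, replicate 2 untreated, and in MDA-MB-231 replicate 2 with TWEAK and replicate 1 untreated (adjusted p from 0.068 to 0.12). The effect exceeded that in KO cells at IL6, CSF2 (0.50 ± 0.12, adjusted p = 0.034) and CSF3, with the CSF2 difference lost without any 1 of 8 lists of both lines and genotypes (adjusted p from 0.062 to 0.088). These are 3 members against 5.22% of genes called higher, and was below it at none (2.09% of genes). By the exact permutation test the adjusted p of these 3 was 0.24, and that of the IL11 difference in covered length was 0.62. As given above, that test does not decide on a difference between genotypes.

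**Figure D5:**
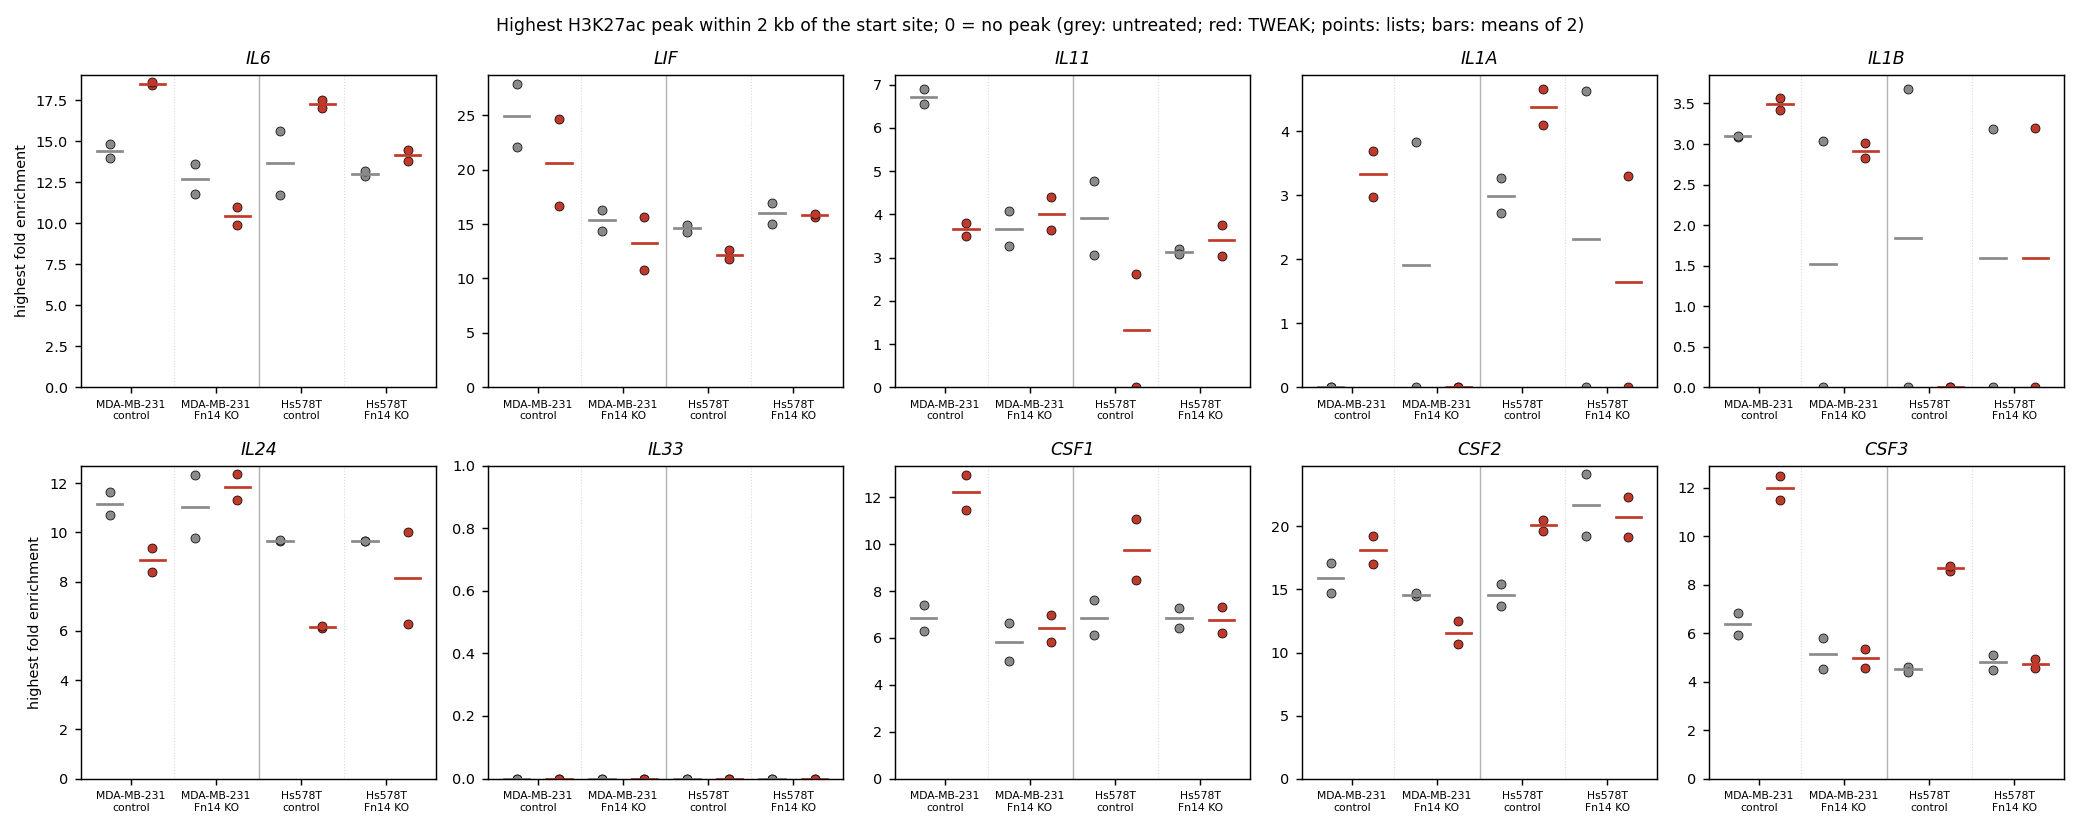
Highest fold enrichment of an H3K27ac peak within 2 kb of the start site (y axis, 0 where no peak was listed) by line and genotype (x axis), untreated in grey and with TWEAK in red. Points are lists and bars are means of 2. CSF1 and CSF3 were higher with TWEAK in control cells of both lines and IL24 was lower.

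The lines differed at several members. MDA-MB-231 had less coverage than Hs578T at CSF1 (-8.71 ± 1.49 kb, adjusted p = 0.00039), CSF2 (-3.87 ± 0.76 kb, 0.0010), IL1A (-3.82 ± 0.73 kb, 0.00080), IL6 (-2.30 ± 0.45 kb, 0.0010) and IL1B (-2.10 ± 0.79 kb, 0.039), and was called higher at none. The IL1B value turned sign with a 25 kb window, and its call was lost without any 1 of 9 lists of both lines (adjusted p from 0.056 to 0.10). Hs578T lists were wider in general, with 47.1% of genes lower and 3.56% higher in MDA-MB-231 and a median difference of -0.78 kb, so 5 of 9 is near the background. Other measures did not all point the same way. Start site height was called higher in MDA-MB-231 at IL11, IL24, CSF3 and LIF and lower at CSF2 (24.9% and 16.5% of genes), and start coverage was higher at IL11 (0.82 ± 0.13 kb) and lower at CSF2 (1.61% and 14.2%). Locus height was higher at IL24 (0.56 ± 0.06) and lower at IL6 and CSF2 (25.9% and 23.5%). The effect of TWEAK in control cells was not called different between the lines at any member for covered length or height (adjusted p of 1 at all 9 for covered kb and at least 0.79 for the other measures). Few genes were called at all in this contrast. Of 17908 genes, 12 were higher and 1 lower for locus coverage, and 18 and 14 for locus height. Of 12543 genes it was 11 and 3 for start coverage and 14 and 21 for start height. The absence of a call therefore does not show that the lines responded alike.

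The receptors and the antagonist of these cytokines were read in the same way. Of 16 genes, 15 were tested, since IL1RL1, the receptor of IL-33, had no peak in any list. In control cells with TWEAK 3 were called higher and 1 lower for covered length, against 7.54% and 11.3% of all genes. IL20RB, a chain of the IL-24 receptors, was covered over 0 to 0.476 kb in untreated and 2.9 to 3.16 kb with TWEAK in the control lists of MDA-MB-231 and over 1.05 to 1.28 kb untreated and 3.47 to 4.33 kb with it in Hs578T, and rose by 2.76 ± 0.33 kb (adjusted p = 6.8e-05). IL6ST, the gp130 gene, rose by 4.43 ± 0.71 kb (0.00077), and IL1RN, the natural antagonist of IL-1, by 1.33 ± 0.30 kb (0.0076). LIFR, the partner of gp130 in the LIF receptor, fell by 5.86 ± 0.82 kb (0.00026). These lengths are for the locus and not the start site. IL6ST and LIFR had a start site peak in all 16 lists, and IL20RB and IL1RN in none. IL1RAP (-1.68 ± 0.60 kb, 0.068) and CSF2RA (1.13 ± 0.44 kb, 0.091) did not pass. In KO cells none was called, and the difference between genotypes passed at IL20RB (2.69 ± 0.46 kb, adjusted p = 0.0038), LIFR (-5.56 ± 1.16 kb, 0.012), IL6ST (4.20 ± 1.00 kb, 0.026) and IL1RN (1.60 ± 0.43 kb, 0.045), against 3.36% of genes called higher and 1.93% lower. The median difference in control cells was 0.09 kb over the 15 genes and -0.20 kb over all genes.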

How the data were processed

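H3K27ac ChIP-seq of 16 samples (8 groups of 2) was analysed from the peak lists. Per the labels and methods the authors aligned reads to hg38 with Bowtie2 after trimming with Trimmomatic, called broad peaks with MACS2 against input, and removed blacklisted regions. Versions are not given in the sources used here. The deposited columns are a peak score, a fold enrichment ratio for the whole peak, −log10 p and −log10 q. Peaks were called per sample, and the replicates are named biological by the study. Genes were the protein-coding genes of GENCODE 44, with the start of the canonical transcript. Covered kb and log2(highest fold enrichment + 1) were tested in limma 3.58.1 (R 4.3.3, trend, 8 group means, residual df 8) over genes with a peak in at least 2 lists, with Benjamini-Hochberg adjustment at 0.05. The same fit was run on 55219 regions merged from the lists. A region was gained where, within 1 line and genotype, both TWEAK lists had a peak there and neither untreated list did, and lost in the opposite case. An exact two-sided permutation test was the alternative. For TWEAK and its difference between genotypes it exchanged treatment labels within each line and genotype. All 10 members are named, with regions gained, lost or among the 20 smallest p in control cells of those called or gained or lost, and of the receptors up to 6 by smallest p. The members, lists and tests were chosen with earlier results of these data known.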

Additional observations from a re-analysis of the deposited data

Results flagged for a closer look

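The effect of TWEAK differed between control and Fn14 KO cells, by limma's test of the difference itself (control effect minus KO effect ± SE, adjusted over all features, n = 2 lists a group), at the following places. For covered length within 2 kb of the start the difference was -1.81 ± 0.26 at IL11 (adjusted p = 0.012), in kb. For the highest fold enrichment in the locus, on the log2 scale, it was 1.42 ± 0.11 at IL1B (adjusted p = 1.4e-06), 1.39 ± 0.11 at IL1A (adjusted p = 1.7e-06), 0.54 ± 0.11 at CSF2 (adjusted p = 0.0026), 0.52 ± 0.12 at IL24 (adjusted p = 0.0049) and 0.50 ± 0.11 at IL6 (adjusted p = 0.0039). For the highest fold enrichment at the start site it was 0.84 ± 0.13 at CSF3 (adjusted p = 0.0026), 0.50 ± 0.12 at CSF2 (adjusted p = 0.034) and 0.41 ± 0.11 at IL6 (adjusted p = 0.049). Among single regions near IL6 and IL11 it was -0.74 ± 0.13 at -53.1 kb from IL6 (adjusted p = 0.0030), 0.47 ± 0.11 at -9.1 kb from IL6 (adjusted p = 0.011) and -0.51 ± 0.14 at -2.6 kb from IL11 (adjusted p = 0.025). Near the IL-1 genes and IL24 it was 1.34 ± 0.10 at -27.8 kb from IL1A (adjusted p = 1.1e-05), 0.86 ± 0.14 at -9.6 kb from IL1A (adjusted p = 0.0018), 0.61 ± 0.11 at -43.1 kb from IL1B (adjusted p = 0.0031) and 0.52 ± 0.12 at -6.8 kb from IL24 (adjusted p = 0.011). Near the colony-stimulating factors it was 1.16 ± 0.19 at -17.9 kb from CSF1 (adjusted p = 0.0017), 0.68 ± 0.17 at 18.1 kb from CSF1 (adjusted p = 0.015) and 0.55 ± 0.17 at 1.5 kb from CSF1 (adjusted p = 0.042). The values there were further 0.87 ± 0.17 at 12.7 kb from CSF2 (adjusted p = 0.0042), 0.46 ± 0.09 at 21.0 kb from CSF2 (adjusted p = 0.0040), 0.49 ± 0.11 at 29.4 kb from CSF2 (adjusted p = 0.011) and 0.84 ± 0.11 at -0.3 kb from CSF3 (adjusted p = 0.00045). Several of these describe 1 peak, since the highest peak of a window is also a region of its own, and the IL1A and IL1B locus heights came from the region they share at -27.8 kb from IL1A in 12 and 11 of the 16 lists.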

How the results depend on the processing

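Counts of members called or of regions gained were compared between the settings reported and the alternatives, and 201 alternative counts stayed within 1.5 times and 36 did not. For TWEAK in control cells, covered length called 4 members, 2 with no filter on genes and 2 to 5 with single lists left out. Highest fold enrichment called 8, 5 with heights centred per list (an alternative chosen after seeing the data) and 5 to 8 with single lists left out. Covered length at the start site called 2, and 1 with no filter, with a 1 kb window or with the replicate block, and 1 to 2 with single lists left out. The difference between genotypes in covered length called 0, but 2 with equal numbers of peaks, 1 on the log2 scale, 1 with a 100 kb window and 0 to 2 with single lists left out. The line comparison called 5 members, 8 with equal numbers of peaks and 2 with the replicate block. Gained regions in control MDA-MB-231 cells numbered 4, against 2 with equal numbers of peaks, 2 among peaks above the pooled median and 8 with a 100 kb window. In Hs578T control cells they numbered 2, against 5 with a 100 kb window. In MDA-MB-231 KO cells they numbered 0, against 2 when a peak had to cover 50% of a region and 0 to 4 with single lists left out, and in Hs578T KO cells 0, against 0 to 1. For single members 752 alternative values kept their call, 144 lost it and 3 turned sign: IL1B between lines with a 25 kb window (0.19 kb), IL11 locus height with a 25 kb window (-0.059) and IL24 start height with a 5 kb window (0.71). The cause was not tested. Replicate numbers did not pair the lists: the correlation of replicate differences between untreated and TWEAK lists was 0.24 and 0.092 in MDA-MB-231 control and KO cells and -0.063 and 0.23 in Hs578T, so the block is given here alone. Between untreated control and KO lists of MDA-MB-231 it was -0.71, the farthest from 0 of the 12 pairs of groups. With the numbers of the MDA-MB-231 KO lists crossed, a pairing added after seeing the data, the block called 1 member for the difference between genotypes. The exact permutation test cannot pass within 1 genotype, where its smallest p is 0.0556. For the difference between genotypes it asks whether TWEAK had any effect in either, and so does not decide on the difference. It is nonetheless counted as an alternative there, and its outcomes are among the 144 lost calls.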
